A study of Drosophila melanogaster with 6 samples.

Results

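The genes of the vacuolar proton pump were taken as every row of the deposited table whose symbol begins with Vha. There are 32 such rows among 14138 rows with a symbol, and several subunits have more than 1 paralog. By sector, 13 rows encode the 8 subunits A to H of V1, 17 encode the 5 subunits a, c, c'', d and e of V0, and 2 encode accessory proteins. Members were chosen by name, and the group was picked for description with earlier results of these data known. The RNA came from Drosophila melanogaster olfactory projection neurons, which relay smell signals out of the antennal lobe. The adult group was 5 d old and the development group was at 36 h after puparium formation (APF), with 3 libraries each. All flies were untreated, and every library was made by SMART-seq2, a full-length cDNA method, from about 2000 cells sorted for a GFP marker. The table has a row for an mCD8-GFP transgene, but the labels name neither the driver nor the genotype, nor whether replicates are separate flies or separate sorts. P-values therefore measure the spread between libraries, which may be technical.

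The vacuolar proton pump is a rotary machine that spends ATP to move protons into membrane compartments. Its V1 sector sits in the cytosol and hydrolyses ATP in a head built from subunits A and B, and its V0 sector sits in the membrane, where a ring of c-type subunits turns against subunit a and carries the protons. In neurons the pump acidifies lysosomes, endosomes and synaptic vesicles, and the gradient across the vesicle membrane drives the loading of transmitter.

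Recovered reads ranged from 18602628 to 42217764 per library. Chi-square over degrees of freedom between recovered reads was 74.0 and 60.5 for development replicate 1 with replicates 2 and 3, 18.1 between those 2, and 44.2 to 63.7 between adult libraries; this sets libraries against counting error only and rises with depth, and development replicate 3 was the shallowest. The neuron-wide gene nSyb had 2094 to 2358 CPM (reads of a gene per 1000000 reads) in adult libraries and 1010 to 1734 CPM in development libraries. Syt1, also neuron-wide, was higher in adult as well. The neuron-wide genes elav and brp did not pass (limma, adjusted p = 0.8818 and 0.1), and elav overlapped between groups. The 8 projection neuron markers summed to 1781 to 1909 CPM in adult and 1558 to 2063 CPM in development. Of the 7 of these that were tested 2 were higher in adult, ChAT and VAChT, and 4 were lower, among them Oaz and kn. Some markers of other cells moved with stage, and others overlapped between groups. The summed CPM of 6 glial markers was 449 to 592 in adult and 291 to 330.2 in development, mostly from Gs2, which was higher in adult, and nrv2, which was lower. At low levels, wrapper was lower in adult (means of 3.37 and 7.07 CPM, limma, adjusted p = 0.02072). All adult libraries lay below all development libraries for moody (means of 0.542 and 2.37 CPM), and Eaat1 overlapped between groups. The defining glial gene repo also overlapped, at 0.811 to 1.34 CPM in adult and 0.753 to 0.931 CPM in development. Summed CPM was 217 to 462 in adult and 28.1 to 38.8 in development for 5 markers of other neuron types. In adult it came mostly from Vmat and Gad1, both higher in adult. Trh was also higher at a low level, while VGlut and ple overlapped between groups. The sum was 71.5 to 84.0 in adult and 32.3 to 41.3 in development for 3 Kenyon cell markers. Of these rut was higher in adult, while ey and Dop1R2 overlapped between groups (limma, adjusted p = 0.1131 for Dop1R2). For 2 olfactory receptor neuron markers the sum was 23.2 to 36.2 in adult and 0.782 to 2.6 in development, nearly all from Orco. The 3 hemocyte markers with a row summed to 224 to 250.2 CPM in adult and 356 to 491 CPM in development, nearly all from Pxn, while Hml overlapped between groups at no more than 1.18 CPM and NimC1 was under 1 CPM in all libraries. Muscle markers summed to 0.397 to 1.11 CPM in adult and 1.01 to 2.92 CPM in development. For 3 fat body markers the sum was 16.4 to 24.7 in adult and 35.1 to 50.1 in development, with Yp1 higher in adult and Lsp2 and Fbp1 lower. The part of these cells in the pump results was not tested. In bulk RNA, fewer cells of a type and less RNA per cell cannot be told apart.

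Pump genes took a larger share of RNA in adult projection neurons than in developing ones, in all libraries. Vha rows took 1.36%, 1.34% and 1.33% of all CPM in adult libraries, against 0.772%, 0.795% and 0.81% in development libraries. The mean share was 1.34% ± 0.0141 in adult and 0.792% ± 0.0189 in development (SD, n = 3 each), a ratio of 1.69. Testing was limited to genes that reached 5 CPM in 3 or more libraries, which 17 of the 32 Vha rows passed, and the passing rows include at least 1 gene for each subunit and both accessory proteins. Of these 17, 15 were higher in adult and 0 were lower (limma, adjusted p under 0.05). Of all 6814 tested genes 65.1% passed, 27.2% as higher in adult and 37.9% as lower. With voom weights on the recovered reads the Vha counts were again 15 and 0, beside 27.1% of all genes called higher and 38.0% lower. The 2 others, VhaM9.7-b and VhaM9.7-c, did not pass the test in either direction, and both encode subunit e. The 95% intervals of both include 0, so 0 Vha genes were lower at an unadjusted p of 0.05 too. Without development replicate 1 the count of higher Vha genes was also 15, beside 1930 of all 6814 tested genes.

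The size of the rise was moderate. The median log2 change of the 17 tested rows was 0.61, from -0.44 to 1.28, beside a median of -0.15 over all tested genes. Only 2 rows, those of subunits A and B, rose at least 2-fold, which 13.4% of all tested genes did. All 3 adult libraries lay above all 3 development libraries for 15 rows, and below them for 1, VhaM9.7-b, beside 28.8% and 40.2% of all tested genes.

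**Figure D1:**
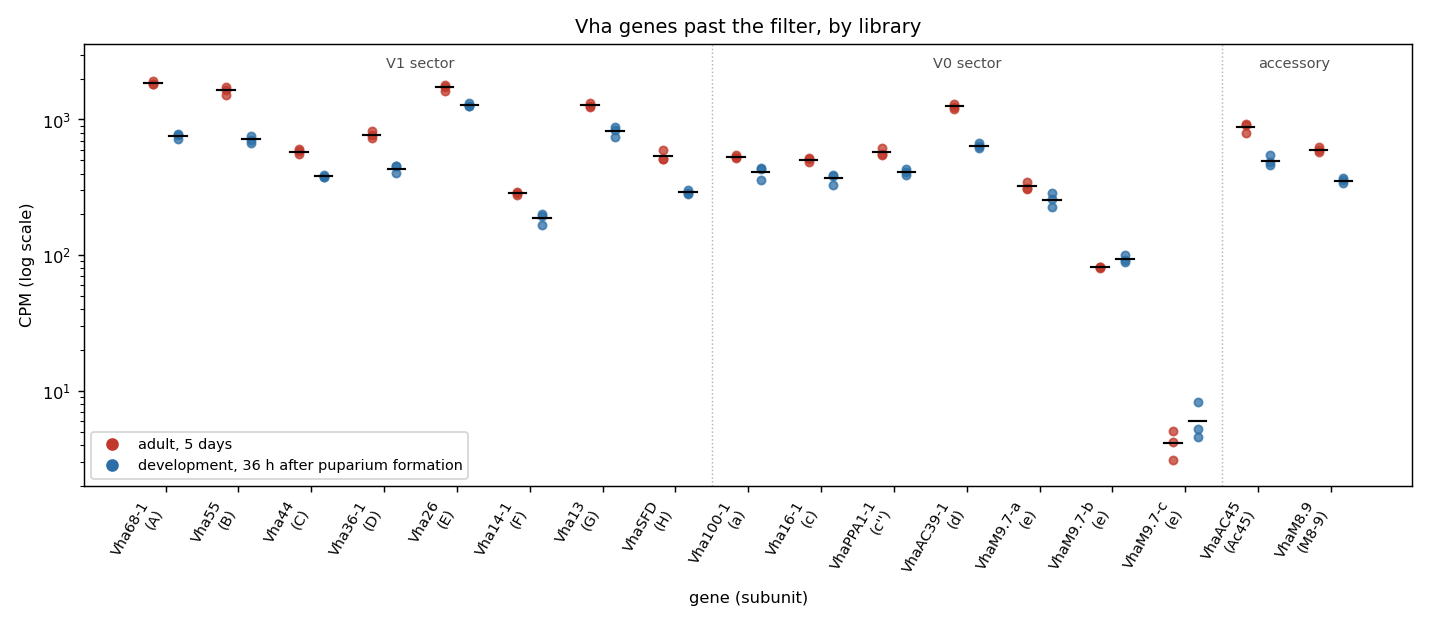
CPM on a log axis for the 17 Vha genes past the filter, with a point per library (adult red on the left, development blue on the right), black bars for group means and the subunit in brackets. Adult points lie above development points for 15 genes, while VhaM9.7-b is the reverse on this CPM scale (its groups overlap with median-of-ratios scaling) and VhaM9.7-c overlaps.

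The catalytic head had the highest log2 changes. Vha68-1 (FBgn0265262; 2L, 13000770 to 13004107, minus strand) encodes subunit A, which holds the site of ATP hydrolysis. It had 1912, 1822 and 1814 CPM in adult libraries, against 788, 724 and 768 CPM in development libraries. Every adult library was more than 1000 CPM above every development library. The log2 change was 1.28 ± 0.0833 (SE; limma, adjusted p = 1.701e-08), higher than that of 90.3% of all tested genes. Its partner Vha55 (FBgn0005671; 3R, 12623762 to 12627829, minus strand) encodes subunit B, the other part of the head. Adult libraries held 1750, 1645 and 1514 CPM of Vha55, and development libraries 760.1, 711 and 667 CPM. Again the groups were far apart, with a log2 change of 1.2 ± 0.092 (SE; limma, adjusted p = 8.131e-08). The log2 ratio of Vha68-1 to Vha55 was 0.18 ± 0.0719 in adult and 0.09 ± 0.0957 in development (SD, n = 3 each; exact two-sided permutation p = 0.3), so a difference between the 2 rises was not detected.

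The genes of the central rotor and the stalks of V1 rose with smaller log2 changes. Vha36-1, subunit D of the rotor, had 820.1, 769 and 729 CPM in adult libraries, against 403, 451 and 451 CPM in development libraries. Subunit F of the rotor is encoded by Vha14-1, at 293, 286 and 276 CPM in adult and 167, 193 and 202 CPM in development. In both genes development replicate 1 was the lowest of its group and the groups did not overlap, with log2 changes of 0.83 ± 0.0935 for Vha36-1 and 0.61 ± 0.106 for Vha14-1 (SE; limma, adjusted p = 3.489e-06 and 0.0002042).

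The peripheral stalks, made of subunits E and G, keep the head from turning with the rotor. For the E gene Vha26 the adult libraries had 1635, 1800 and 1744 CPM and the development libraries 1265, 1329 and 1256 CPM. Its log2 change of 0.43 ± 0.0832 was the smallest among the 8 tested V1 genes (SE; limma, adjusted p = 0.0004903), and under quantile normalization it was 0.21 (adjusted p = 0.02336; 3.552e-05 to 0.02336 over 15 alternatives). The G gene Vha13 had 1239, 1253 and 1320 CPM in adult, against 740, 838 and 885 CPM in development, a log2 change of 0.63 ± 0.0922 (SE; limma, adjusted p = 3.987e-05), or 0.39 under quantile normalization. The log2 ratio of Vha68-1 to Vha26 was 0.23, 0.018 and 0.057 in adult libraries and -0.68, -0.87 and -0.71 in development libraries. Subunit A RNA was thus above subunit E RNA in CPM in all adult libraries and below it in all development libraries (difference 0.86 on the log2 scale; exact two-sided permutation p = 0.1, the lowest value possible with 3 libraries per group, or 0.2 adjusted over 4 ratios chosen after their values were seen).

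Subunits C and H are the V1 parts linked to the joining of V1 and V0. Vha44, subunit C, was at 584, 555 and 604 CPM in adult libraries, against 374, 376 and 391 CPM in development libraries. VhaSFD, subunit H, was at 514, 596 and 509.7 CPM in adult and 284, 288 and 304 CPM in development. Both groups were well separated, and the log2 changes were 0.61 ± 0.0892 for Vha44 and 0.88 ± 0.0983 for VhaSFD (SE; limma, adjusted p = 4.245e-05 and 3.141e-06). Of the exon bases of Vha44, 3.68% overlap Hmgs on the opposite strand, and whether reads were counted by strand is not known from the sources used here.

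In the membrane sector the d subunit gene had the highest log2 change. VhaAC39-1 (FBgn0285910; X, 3880748 to 3882967, plus strand) encodes subunit d, which joins the rotor to the ring. It had 1310, 1246 and 1198 CPM in adult libraries, against 620.1, 638 and 668 CPM in development libraries, a log2 change of 0.96 ± 0.0856 (SE; limma, adjusted p = 3.328e-07). The ring genes had smaller log2 changes. Vha16-1, subunit c, had 483, 517 and 508 CPM in adult and 329.7, 391 and 386 CPM in development, with the lowest value again in development replicate 1. VhaPPA1-1, the c'' subunit of the same ring, had 561, 546 and 617 CPM in adult and 391.7, 433 and 407 CPM in development. Their log2 changes were 0.45 ± 0.0988 and 0.48 ± 0.0938 (SE; limma, adjusted p = 0.001226 and 0.0004868). Between subunits d and c the log2 ratio was 1.44, 1.27 and 1.24 in adult libraries and 0.91, 0.7 and 0.79 in development libraries, with no overlap (exact two-sided permutation p = 0.1, or 0.2 adjusted over the 4 ratios). This pair too was chosen after its values were seen, and the adjustment does not cover the pairs that were not chosen.

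Vha100-1 (FBgn0028671; 3R, 29131193 to 29137980, plus strand) encodes subunit a, which forms the proton path beside the ring; in flies it is known as the neuronal form of a. Adult libraries had 525, 516 and 545 CPM and development libraries 441, 357 and 435 CPM. Replicate 2 was the low one in development, and the highest development library lay below the lowest adult one by less than 100 CPM. The log2 change was 0.37 ± 0.103 (SE; limma, adjusted p = 0.006217). Subunit e, a small membrane protein of V0, was the only subunit with more than 1 gene past the filter, and it is described with the paralogs.

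Both accessory genes rose. VhaAC45, whose product Ac45 is a membrane protein bound to V0, had 917, 801 and 923 CPM in adult libraries, against 484, 459 and 546 CPM in development libraries. VhaM8.9, annotated as ATP6AP2 and known as the prorenin receptor in mammals, had 631, 599 and 572 CPM in adult and 339, 357 and 369 CPM in development. The groups were apart for both, at log2 changes of 0.83 ± 0.0998 and 0.76 ± 0.0915 (SE; limma, adjusted p = 6.706e-06 and 6.741e-06). A row outside the name rule belongs beside them. CG31030, annotated as the Ac45-related gene VhaAC45RP, had 1870, 1821 and 1848 CPM in adult, against 1175, 1146 and 1089 CPM in development. It rose by a log2 change of 0.7 ± 0.0812 (SE; limma, adjusted p = 4.605e-06). Per kilobase of exon it stood at 1105 ± 14.52 CPM in adult and 680.3 ± 26.2 CPM in development, above VhaAC45 at 437 ± 34.1 CPM per kb in adult and 247 ± 22.3 CPM per kb in development (SD, n = 3 each).

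**Figure D2:**
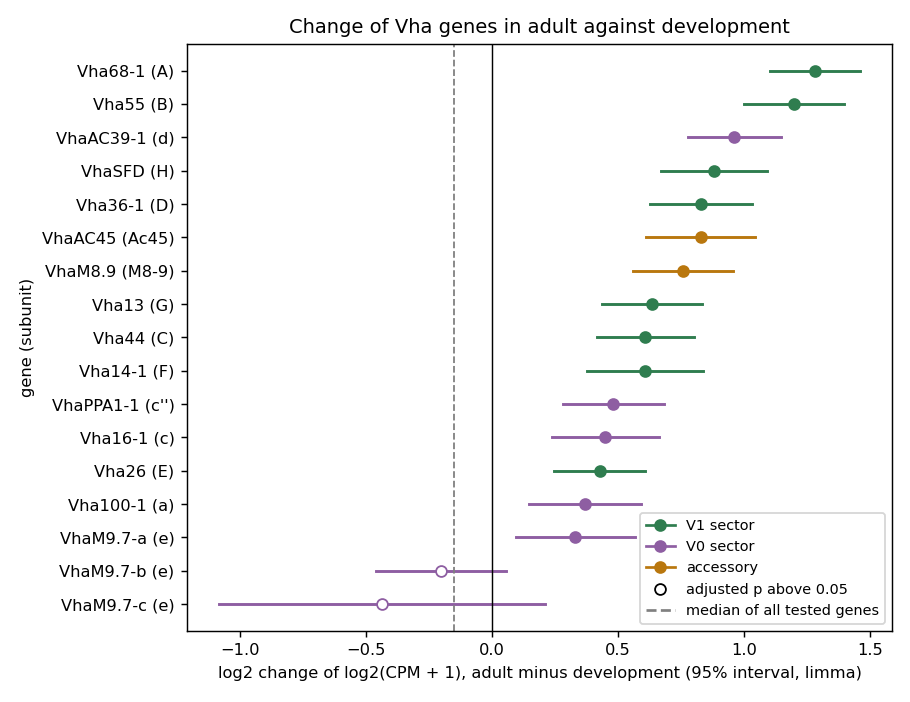
Log2 change of each tested Vha gene, as adult minus development in units of log2(CPM + 1), with its 95% interval from limma; filled points passed the adjusted threshold of 0.05 and open points did not. The 2 genes of the catalytic head lie at the top, near 1.2 to 1.28, and the genes of subunit e fill the 3 lowest places, with the dashed line at the median of all tested genes, -0.15.

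Changes were larger by median in V1 than in V0, a difference that was not tested. All 8 tested V1 genes were higher in adult, with a median log2 change of 0.73, and 5 of 7 tested V0 genes were higher, with a median of 0.37. The 7 V0 genes include VhaM9.7-a, VhaM9.7-b and VhaM9.7-c, all of subunit e, of which only VhaM9.7-a passed. Their log2 changes were the lowest of V0 (0.33, -0.2 and -0.44), while each tested V1 gene encodes a different subunit. Summed over all rows per kilobase of exon, V1 had 4761, 4723 and 4653 CPM per kb in adult libraries, against 2612, 2782 and 2831 CPM per kb in development libraries. The V0 sum was 1970, 1938 and 2017 CPM per kb in adult and 1280, 1409 and 1377 CPM per kb in development. The ratio of V1 to V0 was therefore 2.42, 2.44 and 2.31 in adult libraries and 2.04, 1.98 and 2.06 in development libraries, without overlap. Its mean was 2.39 ± 0.0699 in adult and 2.02 ± 0.0427 in development (SD, n = 3 each), and the gap between the means was 0.338 to 0.403 when any library was left out. This ratio was not among the planned results. It counts RNA and not protein, and subunits differ in their number of copies per pump. Vha68-1 and Vha55, which had the highest log2 changes, are both in the V1 sum. Their means were 691 and 587 CPM per kb in adult, against 284 and 256 CPM per kb in development. The ratio without them was not computed, so a shift of the whole sector was not shown.

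Levels per kilobase spread widely among subunits of the same machine. Vha13 was the highest in every library, at 1348 ± 45.8 CPM per kb in adult and 871 ± 78.6 CPM per kb in development. Among the lead genes of each subunit Vha44 was the lowest, at 144 ± 6.08 CPM per kb in adult and 94.6 ± 2.24 CPM per kb in development (SD, n = 3 each). The c subunit gene Vha16-1, whose product fills most of the ring, was near the bottom too, at 163 ± 5.71 CPM per kb in adult and 120 ± 11.04 CPM per kb in development. The merged exons of Vha16-1 span 3077 bases and those of Vha44 span 4023 bases. Both levels therefore rest on how much of that length the transcripts use. Without length scaling Vha44 was not the lowest lead gene. It averaged 581 CPM in adult and 380.5 CPM in development, against 285 and 187 CPM for Vha14-1.

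The order of levels changed at the catalytic head. In adult neurons Vha36-1, VhaAC39-1 and Vha68-1 followed Vha13 in ranks 2 to 4, at 726, 698 and 691 CPM per kb, and each overlapped its neighbour over the libraries. Vha26 and Vha55 came next at 590 ± 28.6 and 587 ± 42.4 CPM per kb (SD, n = 3) and overlapped as well. In developing neurons Vha26 held rank 2 at 439 ± 13.6 CPM per kb, clear of all others, while Vha68-1 and Vha55 stood at ranks 8 and 9, at 284 ± 12.1 and 256 ± 16.7 CPM per kb. From rank 6 to rank 11 in development, which are VhaPPA1-1, Vha14-1, Vha68-1, Vha55, VhaAC45 and VhaM8.9, each gene overlapped the next.

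**Figure D3:**
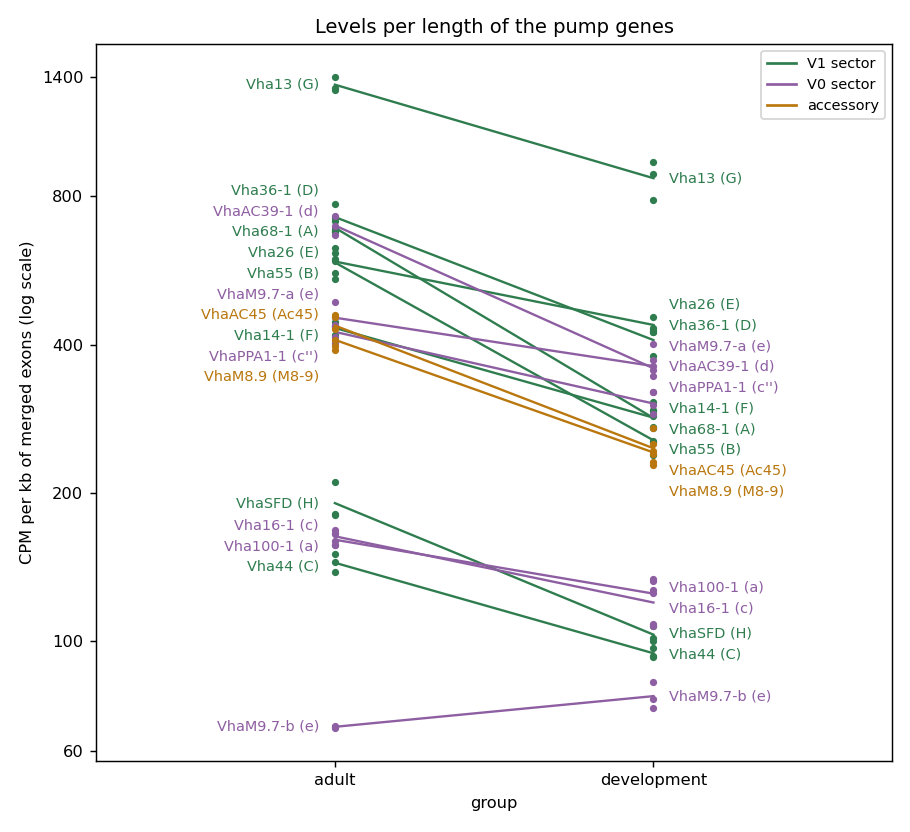
CPM per kb of merged exons on a log axis for the tested Vha genes except VhaM9.7-c, which lay at 4.87 in adult and 7.12 in development; points are libraries and lines join the group means, adult on the left. The lines of Vha68-1 and Vha55 are the steepest and cross those of VhaPPA1-1, Vha14-1 and VhaM9.7-a, while VhaM9.7-b slopes the other way.

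Paralog use was near complete for 7 of the 8 subunits that have more than 1 row. The leading gene was Vha68-1 for A, Vha36-1 for D, Vha14-1 for F, Vha100-1 for a, Vha16-1 for c, VhaPPA1-1 for c'' and VhaAC39-1 for d. Vha68-1 made up 99.6%, 99.8% and 99.8% of the A subunit's CPM per kb in adult libraries, against 99.3%, 99.7% and 99.5% in development libraries. Vha100-1 made up 99.5%, 98.0% and 99.8% of subunit a in adult and 98.3%, 98.7% and 99.5% in development, the lowest share among these 7 subunits. In the 5 others the leading gene held at least 99.5% of the subunit in every library. The annotated gene Vha16-2 was not analysed here, so the subunit c shares leave it out. Mean shares differed between groups by at most 0.252 percentage points, for Vha100-1, whose difference was 0.818 without adult replicate 2, 0.603 without development replicate 3 and -0.11 without adult replicate 3. The 7 exact two-sided permutation tests gave p from 0.1 to 1, or 0.4 to 1 adjusted over 8 subunits, and 3 libraries per group cannot give a p below 0.1. Reads that match 2 paralogs equally may have been dropped or split in counting, and how alike the paralogs are in sequence was not analysed here.

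Subunit e was the exception, with a pair of genes in use whose balance did not overlap between stages. VhaM9.7-a (FBgn0035521; 3L, 4262705 to 4263464, plus strand) had 309.7, 311 and 346 CPM in adult libraries, against 228, 285 and 258 CPM in development libraries. VhaM9.7-b (FBgn0028663; 3L, 21539862 to 21541215, plus strand) had 82.0, 81.7 and 81.1 CPM in adult, against 89.0, 100.7 and 92.8 CPM in development. The a form was thus higher in every adult library and the b form was lower in every adult library. The order of the b form depends on CPM scaling: with median-of-ratios scaling it stood at 86.8, 86.4 and 84.98 scaled CPM in adult libraries and 84.1, 95.7 and 87.9 scaled CPM in development libraries, which overlap. VhaM9.7-a rose by 0.33 ± 0.109 on the log2 scale (SE; limma, adjusted p = 0.01679), a call that ended without adult replicate 3 (0.28 on the log2 scale, adjusted p = 0.07528, the highest over 15 alternatives, whose lowest was 0.001531). VhaM9.7-b did not pass, at a log2 change of -0.2 ± 0.12 (95% interval -0.46 to 0.06; limma, adjusted p = 0.151), and its log2 change was -0.05 with median-of-ratios scaling and -0.089 with quantile normalization (adjusted p from 0.08128 to 0.732 over 15 alternatives).

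The difference between these paralogs was tested directly. VhaM9.7-a exceeded VhaM9.7-b by 1.9, 1.92 and 2.08 on the log2 scale in adult libraries, against 1.35, 1.49 and 1.46 in development libraries. The groups did not overlap, and the adult mean was larger by 0.53 (exact two-sided permutation p = 0.1, the lowest value possible with 3 libraries per group). As a share of subunit e per kilobase, VhaM9.7-a held 86.0%, 85.9% and 87.0% in adult and 80.2%, 81.3% and 81.6% in development. VhaM9.7-b held 13.3%, 13.2% and 11.9% in adult and 18.3%, 16.75% and 17.2% in development. The share of VhaM9.7-a was higher in adult by 5.27 percentage points, or 7.06 without length scaling (exact two-sided permutation p = 0.1 each; 0.4 adjusted over 8 subunits). The remaining forms were scarce: VhaM9.7-c had 3.13, 4.21 and 5.04 CPM in adult and 5.2, 8.34 and 4.57 CPM in development, with overlapping groups and a log2 change of -0.44 ± 0.3 (SE; limma, adjusted p = 0.2147).

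**Figure D4:**
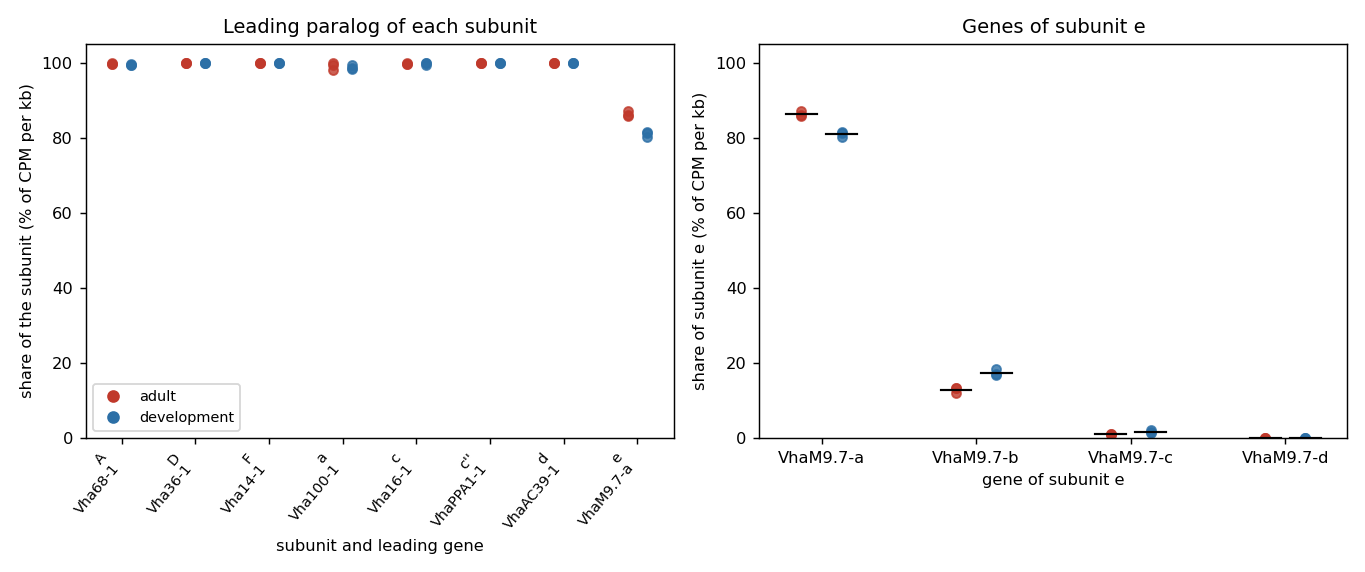
Left, the share of the leading gene in its subunit's CPM per kb in percent, by library, for the 8 subunits with more than 1 row (adult red, development blue); right, the share of each gene of subunit e, with black bars for group means. All subunits but e sit near the top of the scale, and in subunit e the adult points of VhaM9.7-a lie at 85.9 to 87.0 and the development points at 80.2 to 81.6.

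The 15 rows below the filter had few reads. Of these, 10 stayed under 1 CPM in every library and 11 had 0 reads in at least 1 library, where 3 reads correspond to 0.0711 to 0.161 CPM. Vha68-2 (2L, 12974322 to 12978607) was the most abundant by total reads: 281, 124 and 84 reads in adult libraries, against 164, 82 and 64 reads in development libraries. That is 6.66, 3.79 and 2.07 CPM in adult and 5.27, 2.37 and 3.44 CPM in development, with full overlap. Vha68-3, the third A gene, had 35, 26 and 43 reads in adult and 4, 4 and 6 reads in development. All its adult libraries were higher, at levels of 0.794 to 1.06 CPM in adult and 0.116 to 0.323 CPM in development. It was the only row below the filter that passed when the filter was dropped (limma, adjusted p = 0.005415, with 13.3% of all 14138 rows called higher). Its log2 change was 0.67 ± 0.119 (SE) in log2(CPM + 1), where the added 1 shrinks changes at such low levels. The ratio of its mean CPM, adult over development, was 4.73.

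Other low paralogs were seen in some libraries and not in others of the same group. Vha100-2 had 6, 311 and 24 reads in adult libraries and 171, 158 and 32 reads in development libraries, and its 9.49 CPM in adult replicate 2 was the highest value of any row below the filter. VhaPPA1-2 had 17 reads in adult replicate 3 and 15 in development replicate 2, with 0 in the rest. Vha36-3 had 25 reads in adult replicate 1, 25 in development replicate 2 and 1 in development replicate 3. Vha16-5 had 15 reads in adult replicate 2 and 7 in development replicate 3. Such rows show presence in a library more than a level of the group. Vha16-4 and VhaM9.7-d had 1 read each over all 6 libraries, and Vha36-2 had 3.

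**Figure D5:**
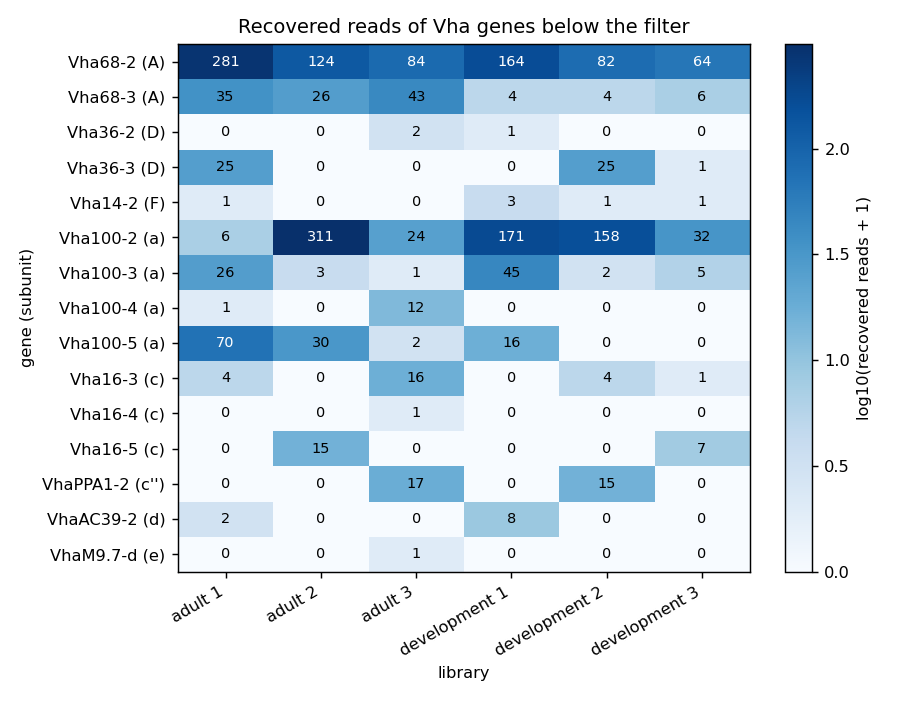
Recovered reads of the 15 Vha genes below the filter (rows, subunit in brackets) in each library (columns, adult on the left), printed in each cell and shaded by log10(reads + 1). Vha68-2 and Vha100-2 hold the most reads, and most other rows have reads in only some libraries of a group.

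Position and gene structure, which the name rule did not use, were taken from the BDGP6.54 annotation. Several low paralogs lie next to another gene of their subunit: Vha68-3 starts 178 bases beyond Vha68-2 on the same strand, with Vha68-1 22162 bases from Vha68-2 on the other strand. On 3R, Vha100-2 and Vha100-4 are 517 bases apart and VhaPPA1-1 and VhaPPA1-2 are 2052 bases apart. Of the 17 rows past the filter, 3 have a single exon in every transcript, Vha36-1, Vha14-1 and VhaM9.7-c, and 12 have at least 2 annotated transcripts. Of the 15 rows below it, 5 have a single exon and 6 have at least 2 transcripts. Antisense overlap reached 18.1% of the exon bases for Vha100-5 and was under 4% for all other Vha rows.

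Genes that assemble or regulate the pump formed a list of 6, all tested, of which 3 were higher in adult and 0 lower, beside 27.2% and 37.9% of all tested genes. Rbcn-3A and Rbcn-3B encode the Rabconnectin-3 pair, known in flies to be needed for pump activity. Rbcn-3A had 616, 537 and 447 CPM in adult libraries, against 259.9, 145 and 139.7 CPM in development libraries, with development replicate 1 the high one and a log2 change of 1.6 ± 0.1975 (SE; limma, adjusted p = 8.315e-06). Rbcn-3B had 69.9, 83.4 and 70.1 CPM in adult and 45.6, 40.2 and 44.2 CPM in development, a log2 change of 0.76 ± 0.141 (SE; limma, adjusted p = 0.0003168). The third, mtd, encodes a protein with a TLDc domain, a kind known in mammals to bind V1. Its levels were 526, 511 and 515 CPM in adult and 116, 71.1 and 75.7 CPM in development, a log2 change of 2.58 ± 0.155 (SE; limma, adjusted p = 7.283e-09), above that of every Vha gene tested. Mitf, a transcription factor known in flies to act on Vha genes, had 9.05, 15.8 and 11.4 CPM in adult and 7.39, 12.8 and 8.33 CPM in development, which overlap (limma, adjusted p = 0.3159). The Rag GTPase genes, which act with the pump at the lysosome, did not pass either. RagA-B averaged 36.8 ± 7.26 CPM in adult and 48.5 ± 7.36 CPM in development, and RagC-D averaged 85.8 ± 14.95 CPM in adult and 80.9 ± 11.9 CPM in development (SD, n = 3 each).

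Vesicular transporters, which spend the proton gradient to fill vesicles, were a list of 5 genes with 4 tested, and 3 of these were higher in adult, beside 27.2% of all tested genes. VAChT, the acetylcholine transporter, had 201, 275 and 173 CPM in adult libraries, against 99.1, 66.2 and 57.5 CPM in development libraries (log2 change 1.54 ± 0.1985, SE; limma, adjusted p = 1.251e-05). Vmat, the monoamine transporter, had 92.2, 148 and 300.4 CPM in adult and 16.7, 3.53 and 7.8 CPM in development, a log2 change of 4.18 ± 0.438 (SE; limma, adjusted p = 1.694e-06), and is also among the markers of other neuron types. VGAT, the GABA transporter, averaged 35.1 ± 5.66 CPM in adult and 16.1 ± 3.37 CPM in development (SD, n = 3 each; limma, adjusted p = 0.0003703). VGlut, the glutamate transporter, overlapped between groups at 23.2 ± 9.75 CPM in adult and 17.02 ± 2.58 CPM in development (SD, n = 3 each; limma, adjusted p = 0.2246). The transporter gene prt was below the filter, at 3.34 to 7.5 CPM in adult and 0.914 to 2.95 CPM in development.

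The lysosomal list was near the background. Of 23 listed genes 14 were tested, and 4 of these (28.6%) were higher in adult and 5 (35.7%) lower, beside 27.2% and 37.9% of all tested genes, with a median log2 change of -0.15, also that of all tested genes. Higher were Npc2a, a sterol carrier gene (26.6 ± 1.74 CPM in adult and 8.54 ± 2.42 CPM in development), the hexosaminidase gene Hexo2 (8.6, 7.29 and 14.1 CPM in adult, 9.76, 2.37 and 3.12 CPM in development, which overlap) and the chloride-proton exchanger gene ClC-c (84.4 ± 7.0 CPM in adult and 49.3 ± 4.47 CPM in development). Lower were Ppt1, a palmitoyl-protein thioesterase gene (9.34 ± 2.82 CPM in adult and 20.1 ± 3.55 CPM in development), the protease gene cathD (222 ± 11.3 CPM in adult and 385 ± 21.04 CPM in development) and ClC-b, a relative of ClC-c (88.9 ± 13.3 CPM in adult and 142 ± 7.14 CPM in development; SD, n = 3 each; all 6 passed limma at an adjusted p of 0.0401 or lower). The mitochondrial ATP synthase, a rotary relative that runs the other way, had 13 of 17 listed genes tested, with 5 (38.5%) higher in adult, 0 lower and a median log2 change of 0.14, beside 27.2% and 37.9% of all tested genes called higher and lower. With median-of-ratios scaling 8 were called, beside 2235 of all 6814 tested genes called higher and 2174 lower. Its highest log2 changes were those of ATPsynB, blw and ATPsynE, at 0.49 ± 0.0842, 0.48 ± 0.0902 and 0.44 ± 0.115 (SE), beside 0.61 for the median Vha gene tested. That difference between lists was not tested.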

How the data were processed

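The authors deposited log2 values, 1 column per library, whose size shows them to be log2(CPM + 1): after conversion each library sums to 1000000 CPM. The submitters' processing notes list STAR 2.4.2a and HTSeq 0.7.1, without roles. Build, annotation and strand setting were not given in the sources used here. Within a library, CPM values come in equal steps of 1 read, so reads were recovered (100% of values above 0 whole within 0.1 read). Of 14139 rows, 1 without a symbol was left out, at most 0.86 CPM. Genes that reached 5 CPM in 3 or more libraries were tested with limma 3.58.1 in R 4.3.3 (eBayes with trend, two-sided) on log2(CPM + 1), with Benjamini-Hochberg adjustment over all 6814 genes. Shares and ratios used exact permutation tests (scipy 1.17.1). Levels per kb divide CPM by merged exon length in Ensembl release 115, to which all 32 Vha rows were matched, 1 under another name. Intervals cover the spread of libraries, and read floors cover counting error only. Replicate numbers were not used to pair libraries in the main tests. The code was tested on simulated data. Members and gene lists were chosen with earlier results of these data known. All tested Vha rows are named. Of the longer lists, up to 3 genes per direction with the largest changes past the threshold are named.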

Additional observations from a re-analysis of the deposited data

How the results depend on the processing

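The 17 tested Vha genes kept their direction under all alternatives in which they were fitted, and 253 of 254 fits kept the side of the threshold. The exception is VhaM9.7-a without adult replicate 3 (adjusted p = 0.07528). The count of Vha genes higher in adult ran from 14 to 15 over fits without a library, was 16 with no filter and 15 under the other alternatives except a log2 change of at least 1, which left 2. Over the fits without a library 1711 to 1930 of all 6814 tested genes were called higher. With no filter 13.3% of all 14138 rows were. The fold rule also left 3 lysosomal genes against 9 and 0 ATP synthase genes against 5, counted in either direction. By this rule 13.4% of all tested genes were higher in adult, and the share lower is not given here. Without the fold rule 65.1% of all tested genes passed in either direction. Median-of-ratios scaling called 8 ATP synthase genes, raised the median log2 change of all genes by 0.15 and called 2235 genes higher and 2174 lower, against 1856 and 2583; quantile normalization raised the median by 0.11. The share of VhaM9.7-a in subunit e was higher in adult by 7.06 points without length scaling, against 5.27, and by 4.85 to 5.57 without a library. Differences in the leading share of 5 other subunits changed sign under an alternative. Deviations of same-numbered libraries correlated at -0.028, 0.042 and -0.011, so no deviation shared by number was seen. These values cannot tell whether same-numbered libraries were prepared together. With the replicate block 15 Vha genes were called higher, and the VhaM9.7-a to VhaM9.7-b difference was 0.53 (exact permutation p = 0.25, the smallest for 3 pairs). TMM scaling and edgeR were not run. On recovered reads, voom called 15 Vha genes higher. Depth limits the 15 low rows: most rest on fewer than 100 reads in all.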
